A study of Gallus gallus with 8 samples.

Results

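The 44 genes described here encode the matrix metalloproteases (MMP), the membrane-anchored ADAM proteases, the secreted ADAMTS proteases, the ADAMTS-like proteins and the tissue inhibitors of metalloproteases (TIMP), and were taken by gene symbol out of 14642 genes measured in dorsal skin of chicken embryos. They comprise 12 MMP, 10 ADAM, 16 ADAMTS, 3 ADAMTSL and 3 TIMP genes. RNA-Seq was done on skin at Hamburger & Hamilton (H&H) stage 35 (day 9 of incubation), when feather buds elongate, and at H&H 31 (day 7), before elongation, with epithelium and mesenchyme separated from each other. Mesenchyme at each of these stages and epithelium at each of them make 4 groups of 2 biological replicates, which the labels call batch I and batch II. All embryos were untreated, no genetic change is given for any of them, and the sources used here do not say how many embryos entered a library.

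Skin at these stages is built from an epithelial sheet on a basement membrane and a mesenchyme that lays down collagen, proteoglycans and elastic fibres. MMPs are zinc proteases that cut such matrix proteins, and are made as inactive proenzymes that other proteases or a partner at the cell surface must open. ADAMs sit in the plasma membrane and release the outer part of other membrane proteins, among them Notch receptors and ligands of the EGF receptor. ADAMTS enzymes are secreted and bind to matrix through thrombospondin repeats, with proteoglycans, procollagens and microfibrils among their substrates, while ADAMTS-like proteins have the repeats and no protease domain. TIMPs occupy the active site of MMPs and, for some of them, of ADAMs and ADAMTS enzymes.

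Levels are given as RPKM, in which reads are scaled by the length of the transcript and by the size of the library, for replicate I and then replicate II. Depth was 22050712 to 33620383 alignments per library. Differences are on the log2(RPKM + 1) scale, with the SE of the fit and a p adjusted over the 11155 genes that reached 1 RPKM in at least 2 libraries. The added 1 makes these differences smaller than those of RPKM for low genes, and for some of these the ratio of mean RPKM is given too. Stage changes can thus differ between tissues on this scale where the ratios do not. A gene was called changed at an adjusted p under 0.05. Of the 44 genes, 40 passed the filter on low values, and the other 4 (ADAM8, ADAM28, MMP1 and MMP9) were left out of the test. ADAM19, ADAMTS19 and MMP13 passed the filter only through the libraries of H&H 35 mesenchyme, where they are highest. Their higher values there follow in part from the filter, and the counts below are also given for the other 37 genes. Some of these 37, such as ADAMTS13 and ADAMTSL3, reached 1 RPKM in libraries of 1 tissue alone. Counts between the tissues were not made without them.

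The labelled tissues were checked first. The summed RPKM of 9 epithelial markers was 31.4 to 33.3 in H&H 35 mesenchyme and 7.33 to 12.3 in H&H 31 mesenchyme, against 2110 to 2300 in H&H 35 epithelium and 717 to 929 in H&H 31 epithelium, and 8 of the 9 rose with stage in mesenchyme. TWIST1, a mesenchymal transcription factor, was at 79.4 to 97.2 RPKM in H&H 35 mesenchyme and at 0.296 to 0.349 RPKM in H&H 35 epithelium. The summed RPKM of 9 mesenchymal markers in epithelium was 17.9% of that in mesenchyme at H&H 35 and 21.5% at H&H 31, and most of it came from COL1A2 and DCN. Mesenchyme also held other cell types, whose markers moved with stage. The 10 endothelial markers summed to 248 to 269 RPKM in H&H 35 mesenchyme, against 103 to 108 RPKM in H&H 31 mesenchyme, and 9 of 10 rose. The 6 smooth muscle and pericyte markers summed to 84.3 to 104 RPKM, against 15.5 to 17.1 RPKM, and 5 of 6 rose. Macrophage and leukocyte markers summed to 51.6 to 93.2 RPKM in H&H 35 mesenchyme, against 50.3 to 57.6 RPKM in H&H 31 mesenchyme, and the 3 red cell genes, all of which fell, to 37.4 to 40.3 RPKM, against 243 to 332 RPKM. No marker of these 4 types was at 0 in mesenchyme, and their part in the changes below was not tested. Neuron and Schwann markers summed to a mean of 55.7 RPKM in H&H 35 mesenchyme, against 143 RPKM in H&H 31 mesenchyme. Cartilage markers there summed to a mean of 23.9 RPKM, against 5.45 RPKM. In epithelium, melanocyte markers summed to a mean of 354 RPKM at H&H 35, against 203 RPKM at H&H 31. Neuron and Schwann markers in epithelium summed to a mean of 114 RPKM, against 195 RPKM. The part of these types was not tested either. In whole tissue, fewer cells of a type and less RNA per cell cannot be told apart. One library stood apart: 7 striated muscle markers summed to 30.7 RPKM in library I of H&H 35 mesenchyme, against 2.64 RPKM in library II of H&H 35 mesenchyme and 3.06 to 3.63 RPKM in H&H 31 mesenchyme. Calls that end without it are named beside each gene.

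In sum, protease and inhibitor transcripts were more abundant in mesenchyme. Summed over the 44 genes, RPKM was 734 and 713 in H&H 35 mesenchyme and 635 and 673 in H&H 31 mesenchyme, against 342 and 371 in H&H 35 epithelium and 417 and 434 in H&H 31 epithelium. The ADAM, ADAMTSL, MMP and TIMP families each had the higher sum in mesenchyme at both stages. The ADAMTS family went the other way at H&H 31. Its sum was 127.7 and 128.2 RPKM in H&H 31 mesenchyme, against 172.4 and 166.4 RPKM in H&H 31 epithelium. Much of the mesenchymal excess at H&H 31 lay in MMP2, TIMP2 and TIMP3, whose levels are given below. Sums without these genes were not made. By group mean, a different gene was highest in each group. TIMP2 held 17.3% and 13.5% of the sum in H&H 35 mesenchyme, MMP2 held 16.6% and 17.4% in H&H 31 mesenchyme, MMP15 held 21.5% and 19.1% in H&H 35 epithelium, and ADAMTS17 held 17.5% and 15.4% in H&H 31 epithelium. There MMP15 held 13.7% and 16.0%, the highest in library II, and MMP11 held 12.5% and 15.8%.

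**Figure D1:**
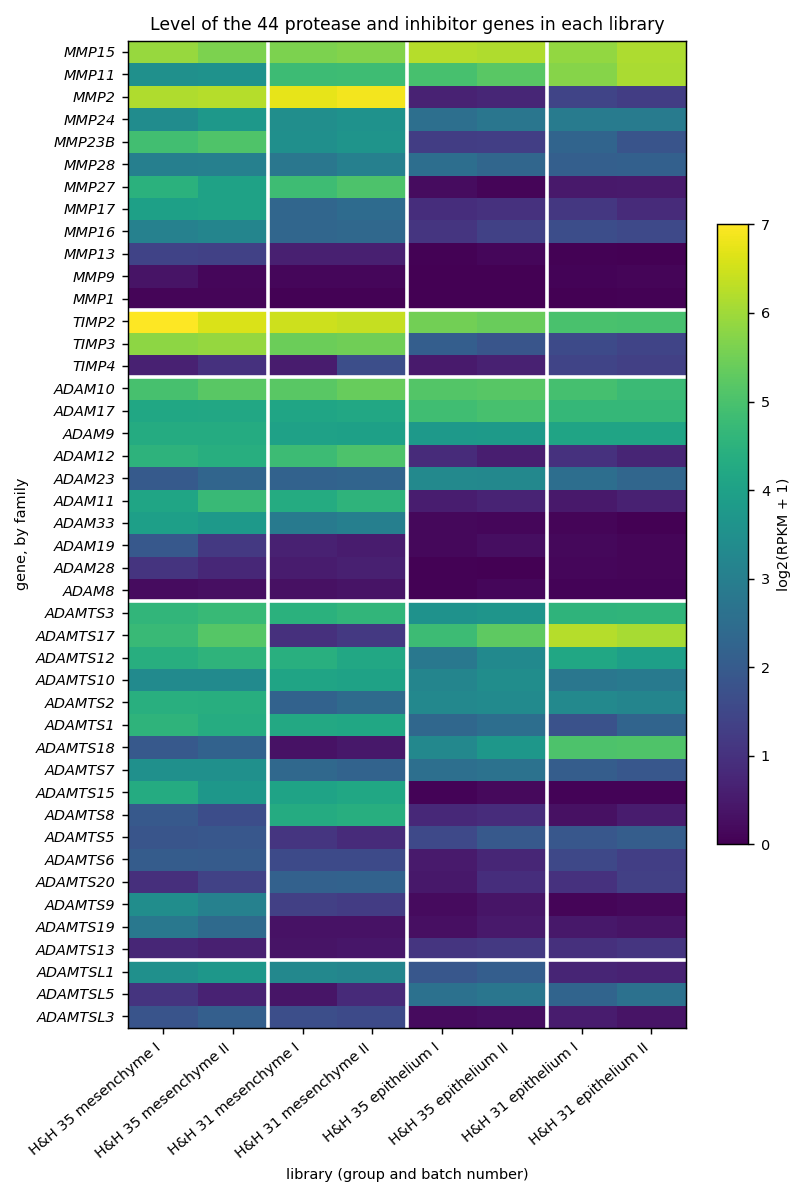
Level of each of the 44 genes in each of the 8 libraries, as log2(RPKM + 1), in colour. Rows are genes by family, ordered by mean level within a family, and columns are libraries, mesenchyme left of epithelium and H&H 35 left of H&H 31. MMP2, TIMP3, ADAM12, MMP27 and ADAMTS15 are bright in all 4 mesenchyme columns and dark in all 4 epithelium columns, while ADAMTS17 is dark only in the 2 columns of H&H 31 mesenchyme.

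Between the tissues, 27 genes were higher and 7 were lower in mesenchyme than in epithelium at H&H 35, and 6 did not pass the test. Over all genes tested, 29.1% were higher and 37.1% were lower in mesenchyme, and 66.2% were called in either direction. At H&H 31, 23 were higher, 9 were lower and 8 did not pass, beside 29.7% higher, 27.7% lower and 57.4% called in either direction over all genes. The median log2 difference of the 40 genes, ADAM19, ADAMTS19 and MMP13 included, was 1.20 at H&H 35 and 0.59 at H&H 31. Over all genes it was -0.10 and -0.01. Of the 37 genes that did not pass the filter through H&H 35 mesenchyme alone, 24 were higher and 7 lower in mesenchyme at H&H 35, and 22 were higher and 9 lower at H&H 31. The 10 MMPs that were tested, MMP13 among them, differed between the tissues at both stages, 8 of them higher and 2 (MMP11 and MMP15) lower in mesenchyme. Of the 40 genes, 20 were higher in mesenchyme at both stages and 6 were lower at both (ADAM17, ADAMTS13, ADAMTS18, ADAMTSL5, MMP11 and MMP15). ADAMTS2 alone of the 40 was called in opposite directions at the 2 stages. TIMP4 alone passed at neither stage. Shares of all genes called at both stages were not counted. Without library I of H&H 35 mesenchyme, 25 genes were higher and 7 lower at H&H 35, with ADAM19, ADAMTS19 and MMP13 then below the filter.

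**Figure D2:**
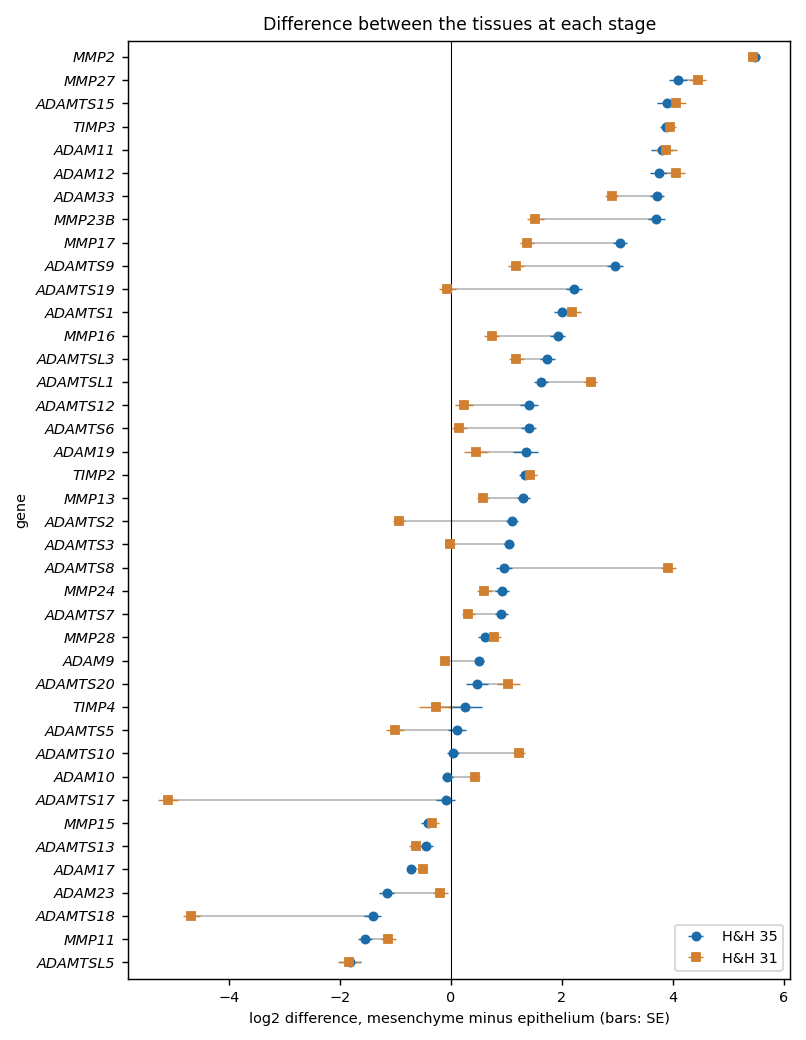
Log2 difference between mesenchyme and epithelium of the 40 tested genes, on the log2(RPKM + 1) scale, with bars for the SE, at H&H 35 (circles) and H&H 31 (squares), joined by a line for each gene and ordered by the value at H&H 35. Values right of 0 are higher in mesenchyme. The longest lines belong to ADAMTS17, ADAMTS18, ADAMTS8 and ADAMTS19.

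Between the stages, more of these genes rose than fell in mesenchyme. There 18 genes rose and 7 fell at H&H 35 relative to H&H 31, and 15 did not pass. Over all genes 18.2% rose and 21.6% fell, 39.8% in either direction. Of the 37 genes, 15 rose and 7 fell. In epithelium 8 rose, 9 fell and 23 did not pass, beside 18.6% that rose, 15.9% that fell and 34.4% in either direction over all genes. The 8 that rose in epithelium became 4 without library I of H&H 31 epithelium, 5 without library II of H&H 31 epithelium and 4 without library I of H&H 35 epithelium. The 18 that rose in mesenchyme became 12 without library II of H&H 31 mesenchyme or without library II of H&H 35 mesenchyme, 13 without library I of H&H 31 mesenchyme and 14 without library I of H&H 35 mesenchyme, the library with muscle markers. Without the one or the other H&H 35 mesenchyme library, ADAM19, ADAMTS19 and MMP13 were below the filter and not among those counted. Over all genes, calls of a rise in the same tissue also became fewer without each library named here. The smaller counts are therefore not particular to these genes. Median log2 changes of the 40 genes, these 3 included, were 0.27 in mesenchyme and 0.05 in epithelium, against -0.03 and 0.02 over all genes. With libraries scaled to an equal sum of RPKM, 1464 of all genes rose and 2315 fell in epithelium, against 2070 and 1772 as deposited, and 6 of the 40 genes rose and 10 fell.

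The change with stage differed between the tissues for many of these genes. In 18 it was more positive in mesenchyme than in epithelium and in 5 more negative, beside 19.4% and 23.0% of all genes, 42.4% in either direction. Of the 37 genes these were 15 and 5, and without library I of H&H 35 mesenchyme, which leaves ADAM19, ADAMTS19 and MMP13 below the filter, also 15 and 5. With equal sums 2682 of all genes were more positive and 1840 more negative, against 2166 and 2564 as deposited, and the counts for the 40 genes were 18 and 4. Equal sums also moved the median of all genes by 0.145 in this comparison and by 0.103 in the difference between tissues at H&H 35, the only 2 shifts above 0.1 among 15 (3 scalings, 5 comparisons). In both tissues 4 genes rose (ADAMTS7, ADAMTSL1, TIMP2 and TIMP3) and 2 fell (MMP2 and MMP11). ADAM9, ADAMTS6, ADAMTS17, ADAMTS18 and MMP23B rose in mesenchyme and fell in epithelium, and ADAMTS8 and ADAMTS10 did the opposite. Shares of all genes with such calls in both tissues were not counted. These comparisons share libraries, so the values are given side by side.

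**Figure D3:**
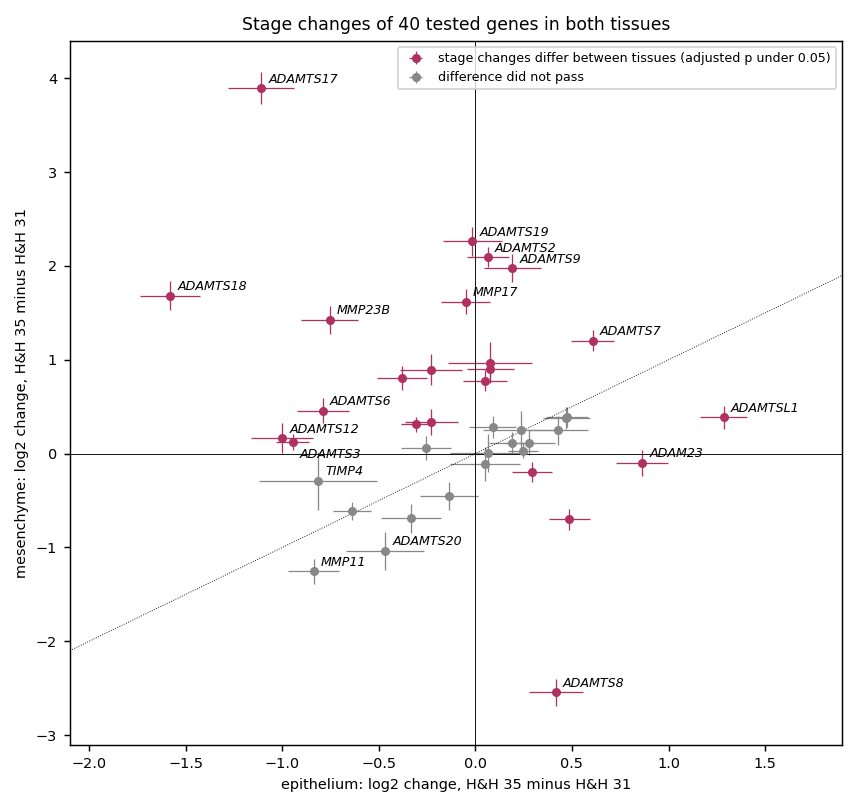
Log2 change with stage, H&H 35 minus H&H 31, of the 40 tested genes in epithelium (x axis) and mesenchyme (y axis), on the log2(RPKM + 1) scale, with bars for the SE and a dotted line where both changes are equal. Red points are the 23 genes whose changes differed between tissues. ADAMTS17 lies highest, at 3.89 in mesenchyme and -1.11 in epithelium, and ADAMTS8 lowest, at -2.54 in mesenchyme and 0.42 in epithelium.

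Of the 6 MMPs tested outside the 4 membrane-type genes, 2 rose and 3 fell in mesenchyme, beside 18.2% and 21.6% of all genes. MMP13, among those that rose, passed the filter only through H&H 35 mesenchyme. In epithelium 3 of the 6 fell, beside 15.9% of all genes. The gelatinase MMP2 was the most abundant in mesenchyme of the 12 MMPs with values. MMP2 cuts denatured collagen and basement membrane collagen. It had 70.9 and 73.7 RPKM in H&H 35 mesenchyme, against 105 and 117 RPKM in H&H 31 mesenchyme, and 0.606 and 0.687 RPKM in H&H 35 epithelium, against 1.71 and 1.42 RPKM in H&H 31 epithelium. Every mesenchyme library lay far above every epithelium library. The log2 difference between the tissues was 5.48 ± 0.10 (SE, adjusted p = 1.41e-09) at H&H 35 and 5.45 ± 0.10 (SE, adjusted p = 1.4e-09) at H&H 31. It fell by 0.61 ± 0.10 (SE, adjusted p = 0.00137) in mesenchyme and fell by 0.64 ± 0.10 (SE, adjusted p = 0.0012) in epithelium, with no overlap between stages. The added 1 weighs on the low epithelial values. Mean RPKM at H&H 35 was 65.0% of that at H&H 31 in mesenchyme and 41.3% in epithelium. By mean RPKM, mesenchyme was 111.8 times epithelium at H&H 35 and 71.0 times at H&H 31. Of the 9 mesenchymal markers, 2 fell (VIM and LUM), 2 rose (CDERMO-1 and PRRX1) and 5 did not pass in epithelium, where they summed to 716 and 757 RPKM at H&H 35, against 989 and 871 RPKM at H&H 31. Their part in the epithelial values of MMP2 was not tested.

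MMP27, a little-studied relative of the stromelysins, was also far higher in mesenchyme. It had 21.2 and 15.4 RPKM in H&H 35 mesenchyme, against 27.5 and 32.3 RPKM in H&H 31 mesenchyme, and 0.164 and 0.0775 RPKM in H&H 35 epithelium, against 0.401 and 0.420 RPKM in H&H 31 epithelium. The tissues were apart by 4.09 ± 0.16 (SE, adjusted p = 4.13e-08) at H&H 35 and by 4.45 ± 0.16 (SE, adjusted p = 2.74e-08) at H&H 31. In mesenchyme it fell by 0.69 ± 0.16 (SE, adjusted p = 0.00791), a call that was lost without library II of H&H 31 mesenchyme (adjusted p = 0.0729).

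MMP23B, an atypical MMP that is anchored to the membrane by its amino end, moved in opposite directions in the 2 tissues. Its levels were 28.6 and 32.8 RPKM in H&H 35 mesenchyme, against 10.3 and 11.3 RPKM in H&H 31 mesenchyme, and 1.40 and 1.46 RPKM in H&H 35 epithelium, against 3.75 and 2.53 RPKM in H&H 31 epithelium. It rose by 1.43 ± 0.15 (SE, adjusted p = 0.00014) in mesenchyme and fell by 0.75 ± 0.15 (SE, adjusted p = 0.00438) in epithelium. The 2 changes differed by 2.18 ± 0.21 (SE, adjusted p = 8.42e-05). The difference between tissues was 3.70 ± 0.15 (SE, adjusted p = 5.48e-08) at H&H 35 and 1.52 ± 0.15 (SE, adjusted p = 2.12e-05) at H&H 31.

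MMP11, or stromelysin-3, is activated inside the cell by furin and leaves it as an active enzyme. Of these 6 MMPs it alone was lower in mesenchyme at both stages. It had 10.5 and 10.9 RPKM in H&H 35 mesenchyme, against 26.7 and 27.2 RPKM in H&H 31 mesenchyme, and 30.2 and 36.3 RPKM in H&H 35 epithelium, against 52.3 and 68.6 RPKM in H&H 31 epithelium. It fell by 1.25 ± 0.13 (SE, adjusted p = 0.000142) in mesenchyme and fell by 0.84 ± 0.13 (SE, adjusted p = 0.0013) in epithelium. The difference between these changes was -0.42 ± 0.19 (SE, adjusted p = 0.102), which did not pass. The log2 difference between mesenchyme and epithelium was -1.54 ± 0.13 (SE, adjusted p = 7.56e-06) at H&H 35 and -1.13 ± 0.13 (SE, adjusted p = 7.05e-05) at H&H 31.

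The collagenase MMP13, which cuts fibrillar collagen, was low. It had 1.67 and 1.55 RPKM in H&H 35 mesenchyme, against 0.519 and 0.523 RPKM in H&H 31 mesenchyme, and at most 0.0831 RPKM in epithelium. It rose by 0.78 ± 0.11 (SE, adjusted p = 0.000855) in mesenchyme, and the change differed from that in epithelium by 0.73 ± 0.16 (SE, adjusted p = 0.00678), a call lost with 0.1 in place of 1 added to RPKM (adjusted p = 0.0959). Its mean RPKM at H&H 35 was 3.08 times that at H&H 31 in mesenchyme and 3.10 times in epithelium, where the stages overlapped. It passed the filter only through H&H 35 mesenchyme, and with no filter the rise had an adjusted p of 0.000331. Epilysin, encoded by MMP28 and known from mammalian epidermis, was at 7.11 and 7.26 RPKM in H&H 35 mesenchyme, against 5.82 and 7.36 RPKM in H&H 31 mesenchyme, and at 4.74 and 3.95 RPKM in H&H 35 epithelium, against 3.32 and 3.46 RPKM in H&H 31 epithelium. It was higher in mesenchyme at both stages and passed in neither stage comparison.

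MMP1 and MMP9, a collagenase and a gelatinase, stayed at or below 0.283 RPKM in every library. The values of such low genes are whole multiples of what 1 read is worth (within 0.02 of a read plus 0.001 of the read number), and the fewest reads that give them can be read off. For MMP1 these were 10 reads over the 8 libraries, with at most 4 in any of them, and for MMP9 they were 44 reads, of which 21 were in library I of H&H 35 mesenchyme. Both were below the filter. With no filter, neither passed in a stage comparison, and at H&H 35 the log2 difference between mesenchyme and epithelium was 0.096 for MMP1 (adjusted p = 0.0312) and 0.23 for MMP9 (0.0333). In the current chicken annotation MMP27 and MMP1 are next to each other, and MMP13 lies in the same run of genes with MMP10 and MMP3 between. MMP27 fell in mesenchyme and MMP13 rose.

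The 4 membrane-type MMPs act at the cell surface, where some of them activate pro-MMP2. Of them 2 rose in mesenchyme, beside 18.2% of all genes. MMP17, which is held by a lipid anchor, changed most. It had 14.7 and 15.4 RPKM in H&H 35 mesenchyme, against 4.01 and 4.45 RPKM in H&H 31 mesenchyme, and 0.886 and 1.0 RPKM in H&H 35 epithelium, against 1.21 and 0.833 RPKM in H&H 31 epithelium. The mesenchyme stages were well apart and the epithelium stages overlapped. It rose by 1.62 ± 0.13 (SE, adjusted p = 3.14e-05) in mesenchyme, where the mean RPKM at H&H 35 was 3.56 times that at H&H 31. The changes differed between tissues by 1.67 ± 0.18 (SE, adjusted p = 0.000154). The tissue difference was 3.05 ± 0.13 (SE, adjusted p = 7.42e-08) at H&H 35 and 1.38 ± 0.13 (SE, adjusted p = 1.55e-05) at H&H 31.

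MMP16, a transmembrane form, had 7.50 and 8.15 RPKM in H&H 35 mesenchyme, against 3.96 and 4.12 RPKM in H&H 31 mesenchyme, and 1.11 and 1.56 RPKM in H&H 35 epithelium, against 2.17 and 1.89 RPKM in H&H 31 epithelium. It rose by 0.81 ± 0.13 (SE, adjusted p = 0.00142) in mesenchyme, and in epithelium its log2 change of -0.38 ± 0.13 (SE, adjusted p = 0.0503) missed the threshold. The 2 changes differed by 1.19 ± 0.18 (SE, adjusted p = 0.00107). MMP15 and MMP24, also transmembrane, passed in neither stage comparison. MMP15 was the most abundant of the 12 MMPs in H&H 35 epithelium, at 73.3 and 70.8 RPKM, and ran between 48.3 and 73.3 RPKM over all 8 libraries. It was lower in mesenchyme by a log2 difference of -0.41 ± 0.12 (SE, adjusted p = 0.012) at H&H 35, lost without library I of H&H 35 epithelium (adjusted p = 0.0552) or library II of H&H 35 mesenchyme (0.0848), and with quantile normalization (0.0592). At H&H 31 the difference was -0.33 ± 0.12 (SE, adjusted p = 0.0357), lost without library II of H&H 31 epithelium (adjusted p = 0.255), library I of H&H 31 mesenchyme (0.16) or library II of H&H 31 mesenchyme (0.0777), and with no filter (0.0674) or no trend (0.058). MMP24 ran between 9.67 and 12.3 RPKM in mesenchyme and between 4.90 and 6.57 RPKM in epithelium.

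Of the 3 inhibitors, TIMP2 was abundant in both tissues and TIMP3 in mesenchyme. Both were called higher at H&H 35 in both tissues, and each of these calls was lost on leaving out certain single libraries. TIMP2 inhibits MMPs and is also part of the surface complex that activates pro-MMP2. It had 127 and 96.0 RPKM in H&H 35 mesenchyme, against 86.9 and 82.4 RPKM in H&H 31 mesenchyme, and 44.4 and 41.4 RPKM in H&H 35 epithelium, against 31.0 and 30.4 RPKM in H&H 31 epithelium. It was the highest of the 44 genes in H&H 35 mesenchyme. It rose by 0.38 ± 0.12 (SE, adjusted p = 0.0327) in mesenchyme and by 0.47 ± 0.12 (SE, adjusted p = 0.0149) in epithelium. The mesenchyme call was lost without library I of H&H 35 mesenchyme (log2 change 0.18, adjusted p = 0.169), library I of H&H 31 mesenchyme (0.0898) or library II of H&H 31 mesenchyme (0.152), and with no filter (0.068), no trend (0.0532) or only the libraries compared (0.076). The epithelium call was lost without library I of H&H 31 epithelium (0.0615), library II of H&H 31 epithelium (0.0729) or library I of H&H 35 epithelium (0.0837). The difference between the tissues was 1.35 ± 0.12 (SE, adjusted p = 1.04e-05) at H&H 35 and 1.43 ± 0.12 (SE, adjusted p = 7.45e-06) at H&H 31.

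TIMP3 binds to matrix and inhibits ADAM and ADAMTS enzymes as well as MMPs. It had 54.9 and 58.0 RPKM in H&H 35 mesenchyme, against 41.7 and 43.7 RPKM in H&H 31 mesenchyme, and 3.27 and 2.61 RPKM in H&H 35 epithelium, against 1.97 and 1.69 RPKM in H&H 31 epithelium. Mesenchyme was higher by 3.87 ± 0.11 (SE, adjusted p = 8.11e-09) at H&H 35 and by 3.95 ± 0.11 (SE, adjusted p = 6.84e-09) at H&H 31. TIMP3 rose by 0.39 ± 0.11 (SE, adjusted p = 0.0187) in mesenchyme, a call lost without library I of H&H 31 mesenchyme (adjusted p = 0.111), library II of H&H 31 mesenchyme (0.0719) or library II of H&H 35 mesenchyme (0.0835). In epithelium it rose by 0.47 ± 0.11 (SE, adjusted p = 0.00891), lost without library II of H&H 31 epithelium (0.0644) or library I of H&H 35 epithelium (0.0552).

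TIMP4 was low, and its H&H 31 mesenchyme replicates disagreed. It had 0.574 and 0.986 RPKM in H&H 35 mesenchyme, against 0.459 and 2.20 RPKM in H&H 31 mesenchyme, and 0.412 and 0.569 RPKM in H&H 35 epithelium, against 1.71 and 1.52 RPKM in H&H 31 epithelium. By the step of 1 read these are 11 and 19, 6 and 36, 8 and 9, and 22 and 24 reads in the same order. The log2 change was -0.29 ± 0.31 (SE, adjusted p = 0.49) in mesenchyme and -0.81 ± 0.31 (SE, adjusted p = 0.07) in epithelium, and neither passed. The mesenchyme change depends on 1 library. Without library I of H&H 31 mesenchyme the mesenchyme change passed (adjusted p = 0.0156), and without library II of H&H 31 mesenchyme it was 0.28 in the other direction (adjusted p = 0.324). The epithelium change passed without the one or the other of these 2 libraries, at an unchanged -0.81, as the SE is shared over the 4 groups. It also passed with only the libraries compared (adjusted p = 0.00404) and with the batch number as a block (adjusted p = 0.0439).

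Of the 6 catalytic ADAMs tested, 3 rose and 1 fell in mesenchyme, beside 18.2% and 21.6% of all genes. ADAM19, among those that rose, passed the filter only through H&H 35 mesenchyme. In epithelium 1 of the 6 rose and 1 fell, beside 18.6% and 15.9% of all genes. ADAM10 and ADAM17, the general sheddases of skin, were expressed in all 4 groups, between 16.4 and 40.3 RPKM. ADAM10, which opens Notch for signalling, had 30.4 and 36.0 RPKM in H&H 35 mesenchyme, against 35.9 and 40.3 RPKM in H&H 31 mesenchyme, and 33.9 and 35.2 RPKM in H&H 35 epithelium, against 29.8 and 26.3 RPKM in H&H 31 epithelium. Neither stage change passed, while their difference did, at -0.49 ± 0.15 (SE, adjusted p = 0.0272). That call was lost without library II of H&H 31 epithelium (adjusted p = 0.101), library II of H&H 31 mesenchyme (0.102), library I of H&H 35 epithelium (0.0508), library II of H&H 35 epithelium (0.0638) or library I of H&H 35 mesenchyme (0.0774), and under all 3 other scalings (0.0533 to 0.21). The higher level in H&H 31 mesenchyme, with a log2 difference of 0.43 ± 0.11 (SE, adjusted p = 0.00679), was lost without library II of H&H 31 epithelium (0.061) or library II of H&H 31 mesenchyme (0.0604). ADAM17, which releases TNF and EGF receptor ligands, was at 17.1 and 17.5 RPKM in H&H 35 mesenchyme and at 28.0 and 30.2 RPKM in H&H 35 epithelium. It was lower in mesenchyme at both stages, by a log2 difference of -0.72 ± 0.08 (SE, adjusted p = 4.25e-05) at H&H 35 and -0.50 ± 0.08 (SE, adjusted p = 0.00052) at H&H 31. Its small rise in epithelium, 0.25 ± 0.08 (SE, adjusted p = 0.0405), was lost on leaving out 6 of the 8 libraries, that is any but the 2 of H&H 35 mesenchyme (adjusted p of 0.0542 to 0.173), under all 3 other scalings (0.0575 to 0.292), and with no trend (0.064) or only the libraries compared (0.065).

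ADAM9, a sheddase of many cell types, moved in opposite directions by small amounts. It had 18.6 and 18.8 RPKM in H&H 35 mesenchyme, against 15.0 and 14.8 RPKM in H&H 31 mesenchyme, and 12.6 and 13.1 RPKM in H&H 35 epithelium, against 16.1 and 16.2 RPKM in H&H 31 epithelium. It rose by 0.31 ± 0.08 (SE, adjusted p = 0.0123) in mesenchyme, lost without library I of H&H 31 mesenchyme (0.0563) or II (0.0698), and fell by 0.31 ± 0.08 (SE, adjusted p = 0.0144) in epithelium, lost without library I of H&H 31 epithelium (0.0803) or II (0.0822) or library I of H&H 35 epithelium (0.0664). The difference of 0.62 ± 0.11 (SE, adjusted p = 0.00218) between the 2 changes was kept without any single library.

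ADAM12, ADAM19 and ADAM33, a related group of ADAMs found in mesenchymal tissues, were called higher in mesenchyme, ADAM12 and ADAM33 at both stages and ADAM19 at H&H 35. ADAM12 had 22.3 and 20.1 RPKM in H&H 35 mesenchyme, against 27.0 and 31.9 RPKM in H&H 31 mesenchyme, and 0.819 and 0.501 RPKM in H&H 35 epithelium, against 1.0 and 0.640 RPKM in H&H 31 epithelium. The tissues were apart by 3.75 ± 0.15 (SE, adjusted p = 5.46e-08) at H&H 35 and by 4.06 ± 0.15 (SE, adjusted p = 3.64e-08) at H&H 31. Its fall by 0.45 ± 0.15 (SE, adjusted p = 0.0408) in mesenchyme was lost without any one of the 4 mesenchyme libraries (adjusted p of 0.0645 to 0.238), under all 3 other scalings (0.0569 to 0.0938), with 0.1 (0.17) or 0.5 (0.078) in place of 1 added to RPKM, and with no filter (0.0791). ADAM33 was all but limited to mesenchyme, with 14.5 and 12.5 RPKM in H&H 35 mesenchyme, against 6.44 and 7.09 RPKM in H&H 31 mesenchyme, and at most 0.113 RPKM in epithelium. It rose by 0.90 ± 0.12 (SE, adjusted p = 0.000568) in mesenchyme, and the change differed from that in epithelium by 0.82 ± 0.17 (SE, adjusted p = 0.00527), a call lost with 0.1 in place of 1 added to RPKM (adjusted p = 0.327). Its mean RPKM at H&H 35 was 1.995 times that at H&H 31 in mesenchyme and 2.387 times in epithelium. The excess in mesenchyme was 3.72 ± 0.12 (SE, adjusted p = 1.77e-08) at H&H 35 and 2.90 ± 0.12 (SE, adjusted p = 7.89e-08) at H&H 31.

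ADAM19 was low and uneven between replicates, with 2.82 and 1.24 RPKM in H&H 35 mesenchyme, against 0.558 and 0.440 RPKM in H&H 31 mesenchyme, and 0.104 and 0.202 RPKM in H&H 35 epithelium, against 0.111 and 0.0774 RPKM in H&H 31 epithelium. The higher value was in library I of H&H 35 mesenchyme, which had more muscle, macrophage and cartilage markers than library II. Their part in the level of ADAM19 was not tested. It rose by 0.97 ± 0.22 (SE, adjusted p = 0.00771) in mesenchyme, lost without library II of H&H 31 mesenchyme (adjusted p = 0.0552). The difference from epithelium, 0.89 ± 0.31 (SE, adjusted p = 0.0443), was lost without any one of the 6 libraries other than those of H&H 35 mesenchyme (0.0708 to 0.124), with 0.1 added (0.0894), with no filter (0.0811) and with quantile normalization (0.097). Without either library of H&H 35 mesenchyme ADAM19 was below the filter, which it passed only through that group, and with no filter the rise had an adjusted p of 0.0227. Mesenchyme was higher by 1.35 ± 0.22 (SE, adjusted p = 5e-04) at H&H 35, and the log2 difference at H&H 31, 0.45 ± 0.22 (SE, adjusted p = 0.106), did not pass. ADAM28 and ADAM8, both known from leukocytes, were below the filter. ADAM28 had 1.09 and 0.720 RPKM in H&H 35 mesenchyme, against 0.436 and 0.538 RPKM in H&H 31 mesenchyme, and at most 0.0839 RPKM in epithelium. ADAM8 was at or below 0.295 RPKM in every library. The fewest reads that give its values were 74 over the 8 libraries, with at most 19 in any of them. With no filter ADAM28 had a log2 change of 0.35 in mesenchyme (adjusted p = 0.0339). Its excess in mesenchyme was then 0.89 at H&H 35 (0.000316) and 0.47 at H&H 31 (0.00675). For ADAM8 the excess was 0.18 at H&H 35 (0.0228) and 0.28 at H&H 31 (0.00419), and neither stage change passed.

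ADAM11 and ADAM23 lack an active site and bind LGI proteins in the nervous system, and their distribution differed. ADAM11 had 16.3 and 25.9 RPKM in H&H 35 mesenchyme, against 18.6 and 22.5 RPKM in H&H 31 mesenchyme, and 0.467 and 0.611 RPKM in H&H 35 epithelium, against 0.381 and 0.560 RPKM in H&H 31 epithelium. The log2 difference was 3.81 ± 0.20 (SE, adjusted p = 2.98e-07) at H&H 35 and 3.87 ± 0.20 (SE, adjusted p = 2.65e-07) at H&H 31. ADAM23 had 2.94 and 3.88 RPKM in H&H 35 mesenchyme, against 3.56 and 3.81 RPKM in H&H 31 mesenchyme, and 8.78 and 8.68 RPKM in H&H 35 epithelium, against 4.80 and 3.94 RPKM in H&H 31 epithelium. It rose by 0.86 ± 0.14 (SE, adjusted p = 0.00141) in epithelium and its change in mesenchyme did not pass, and the 2 changes differed by -0.96 ± 0.19 (SE, adjusted p = 0.00421). At H&H 35 it was lower in mesenchyme, with a log2 difference of -1.15 ± 0.14 (SE, adjusted p = 6.87e-05).

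The ADAMTS genes held the largest stage changes of the 40 tested genes on the log2 scale. Of the 8 outside the procollagen and proteoglycan groups, 5 rose and 1 fell in mesenchyme, beside 18.2% and 21.6% of all genes. ADAMTS19, among those that rose, passed the filter only through H&H 35 mesenchyme. In epithelium 2 of the 8 rose and 4 fell, beside 18.6% and 15.9% of all genes. ADAMTS17 is linked in humans to the elastic microfibrils of the eye and skeleton. It had 25.8 and 34.7 RPKM in H&H 35 mesenchyme, against 0.944 and 1.22 RPKM in H&H 31 mesenchyme, and 27.1 and 37.5 RPKM in H&H 35 epithelium, against 73.1 and 67.0 RPKM in H&H 31 epithelium. H&H 31 mesenchyme alone was near 1 RPKM, and H&H 35 mesenchyme and H&H 35 epithelium overlapped. It rose by 3.89 ± 0.17 (SE, adjusted p = 1.43e-06) in mesenchyme, where the mean RPKM was 27.9 times as high, and fell by 1.11 ± 0.17 (SE, adjusted p = 0.00127) in epithelium. The 2 changes differed by 5.0 ± 0.24 (SE, adjusted p = 5.71e-06). The log2 difference between mesenchyme and epithelium was -0.09 ± 0.17 (SE, adjusted p = 0.669) at H&H 35, which did not pass and changed sign under all 3 other scalings, and -5.09 ± 0.17 (SE, adjusted p = 2.33e-08) at H&H 31. The mean in mesenchyme was 93.6% of that in epithelium at H&H 35 and 1.55% at H&H 31, beside 1.47% and 1.19% for the summed epithelial markers, of which 8 of 9 rose in mesenchyme.

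ADAMTS18, known from the eye and from branching organs in mice, also rose in mesenchyme and fell in epithelium. It had 2.90 and 3.58 RPKM in H&H 35 mesenchyme, against 0.272 and 0.360 RPKM in H&H 31 mesenchyme, and 8.61 and 12.1 RPKM in H&H 35 epithelium, against 32.3 and 32.9 RPKM in H&H 31 epithelium. None of the 4 groups overlapped. It rose by 1.68 ± 0.16 (SE, adjusted p = 7.2e-05) in mesenchyme, with a mean RPKM 10.2 times as high, and fell by 1.58 ± 0.16 (SE, adjusted p = 0.000101) in epithelium, and the changes differed by 3.26 ± 0.22 (SE, adjusted p = 1.64e-05). The log2 difference between mesenchyme and epithelium was -1.41 ± 0.16 (SE, adjusted p = 4.25e-05) at H&H 35 and -4.67 ± 0.16 (SE, adjusted p = 2.15e-08) at H&H 31. The mean in mesenchyme was 31.3% of that in epithelium at H&H 35 and 0.971% at H&H 31, beside the same 1.47% and 1.19%.

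ADAMTS19, the closest relative of ADAMTS17 and tied to heart valves in humans, was above 1 RPKM in 1 of the 4 groups. It had 5.96 and 4.32 RPKM in H&H 35 mesenchyme, against 0.271 and 0.266 RPKM in H&H 31 mesenchyme, and 0.224 and 0.398 RPKM in H&H 35 epithelium, against 0.356 and 0.291 RPKM in H&H 31 epithelium. It rose by 2.26 ± 0.15 (SE, adjusted p = 1.2e-05) in mesenchyme, with a mean RPKM 19.1 times as high, and the changes differed by 2.28 ± 0.21 (SE, adjusted p = 7.46e-05). At H&H 35 mesenchyme was higher by 2.22 ± 0.15 (SE, adjusted p = 1.76e-06). It passed the filter only through H&H 35 mesenchyme, and with no filter the rise had an adjusted p of 0.00021.

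**Figure D4:**
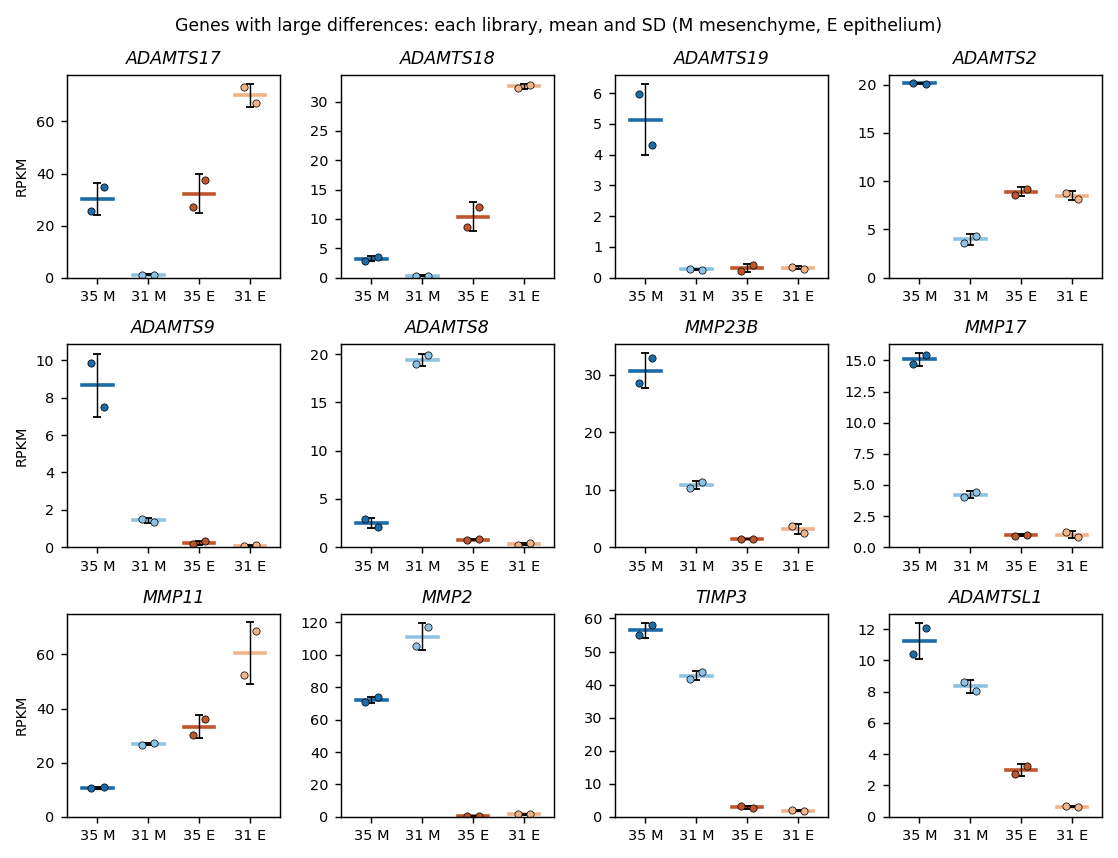
RPKM of 12 genes in each library (points), with the group mean (coloured line) and SD (black bar) of 2 libraries, in H&H 35 and H&H 31 mesenchyme (35 M, 31 M) and H&H 35 and H&H 31 epithelium (35 E, 31 E). Each axis starts at 0. ADAMTS19, ADAMTS9 and MMP17 are highest in H&H 35 mesenchyme, ADAMTS8 and MMP2 in H&H 31 mesenchyme, and ADAMTS17, ADAMTS18 and MMP11 in H&H 31 epithelium.

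Of the procollagen N-propeptidases, which trim the amino end of fibrillar procollagens, ADAMTS2 rose in mesenchyme and ADAMTS3 fell in epithelium. ADAMTS2 had 20.2 and 20.1 RPKM in H&H 35 mesenchyme, against 3.58 and 4.37 RPKM in H&H 31 mesenchyme, and 8.59 and 9.23 RPKM in H&H 35 epithelium, against 8.81 and 8.15 RPKM in H&H 31 epithelium. The order of the tissues was reversed between the stages. It rose by 2.09 ± 0.11 (SE, adjusted p = 2.86e-06) in mesenchyme, with 5.07 times the mean RPKM, while its log2 change in epithelium was 0.06 ± 0.11 (SE, adjusted p = 0.699). The changes differed by 2.03 ± 0.15 (SE, adjusted p = 2.58e-05), and mesenchyme minus epithelium was 1.09 ± 0.11 (SE, adjusted p = 1.99e-05) at H&H 35 and -0.93 ± 0.11 (SE, adjusted p = 6.58e-05) at H&H 31. ADAMTS3, which also processes VEGFC, had 23.5 and 25.4 RPKM in H&H 35 mesenchyme, against 21.3 and 23.3 RPKM in H&H 31 mesenchyme, and 11.0 and 11.6 RPKM in H&H 35 epithelium, against 22.4 and 22.8 RPKM in H&H 31 epithelium. It fell by 0.94 ± 0.09 (SE, adjusted p = 6.21e-05) in epithelium, and the changes differed by 1.07 ± 0.12 (SE, adjusted p = 0.000194). Both genes were called higher in mesenchyme at H&H 35 and neither was at H&H 31.

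The 6 proteoglycan-cleaving ADAMTS genes, whose enzymes cut versican or aggrecan, did not move together: 2 rose, 2 fell and 2 did not pass in mesenchyme. Of all genes 18.2% rose and 21.6% fell there. ADAMTS8 fell most. It had 2.91 and 2.14 RPKM in H&H 35 mesenchyme, against 19.0 and 19.9 RPKM in H&H 31 mesenchyme, and 0.741 and 0.859 RPKM in H&H 35 epithelium, against 0.254 and 0.448 RPKM in H&H 31 epithelium. It fell by 2.54 ± 0.14 (SE, adjusted p = 4.46e-06) in mesenchyme, where the mean RPKM at H&H 35 was 0.130 times that at H&H 31, and the changes differed by -2.96 ± 0.20 (SE, adjusted p = 1.64e-05). Mesenchyme was higher by 0.96 ± 0.14 (SE, adjusted p = 0.000267) at H&H 35 and by 3.92 ± 0.14 (SE, adjusted p = 3.14e-08) at H&H 31. Its rise in epithelium, 0.42 ± 0.14 (SE, adjusted p = 0.0487), was lost with the batch number as a block (adjusted p = 0.0647) and without any one of the 6 libraries other than those of H&H 35 mesenchyme (0.066 to 0.25), with no filter (0.081), and with equal sums (0.0635) or median-ratio scaling (0.056). Its neighbour on the chromosome, ADAMTS15, passed in neither stage comparison and had 19.0 and 12.1 RPKM at H&H 35, against 15.8 and 17.1 RPKM at H&H 31, in mesenchyme, a log2 change of -0.11 ± 0.18 (SE, adjusted p = 0.678). ADAMTS15 was at most 0.128 RPKM in epithelium, and mesenchyme was higher by 3.89 ± 0.18 (SE, adjusted p = 1.44e-07) at H&H 35 and by 4.05 ± 0.18 (SE, adjusted p = 1.12e-07) at H&H 31.

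ADAMTS9 had 9.86 and 7.48 RPKM in H&H 35 mesenchyme, against 1.53 and 1.36 RPKM in H&H 31 mesenchyme, and 0.163 and 0.310 RPKM in H&H 35 epithelium, against 0.0591 and 0.105 RPKM in H&H 31 epithelium. It is a versican-cleaving enzyme that takes part in vessel and skin development in mice. It rose by 1.98 ± 0.15 (SE, adjusted p = 2.23e-05) in mesenchyme, with 6.02 times the mean RPKM, and the changes differed by 1.79 ± 0.21 (SE, adjusted p = 0.000226). Mesenchyme was higher by 2.96 ± 0.15 (SE, adjusted p = 2.17e-07) at H&H 35 and by 1.17 ± 0.15 (SE, adjusted p = 0.000113) at H&H 31. ADAMTS20, an allied gene whose loss whitens part of the coat in mice, went the other way, with 0.923 and 1.59 RPKM in H&H 35 mesenchyme, against 3.54 and 3.62 RPKM in H&H 31 mesenchyme, and 0.371 and 0.896 RPKM in H&H 35 epithelium, against 0.982 and 1.51 RPKM in H&H 31 epithelium. It fell by 1.04 ± 0.20 (SE, adjusted p = 0.00391) in mesenchyme. Its log2 change in epithelium, -0.47 ± 0.20 (SE, adjusted p = 0.11), and its tissue difference at H&H 35, 0.47 ± 0.20 (SE, adjusted p = 0.0684), passed with the batch number as a block (adjusted p = 0.0395 and 0.0209).

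ADAMTS1 and ADAMTS5, which lie side by side on a chromosome, differed in distribution. ADAMTS1 had 22.5 and 19.3 RPKM in H&H 35 mesenchyme, against 17.7 and 17.0 RPKM in H&H 31 mesenchyme, and 4.10 and 4.75 RPKM in H&H 35 epithelium, against 2.43 and 3.74 RPKM in H&H 31 epithelium. Neither stage change passed, and mesenchyme was higher by 2.01 ± 0.16 (SE, adjusted p = 4.24e-06) at H&H 35 and by 2.19 ± 0.16 (SE, adjusted p = 2.53e-06) at H&H 31. ADAMTS5, the main aggrecanase of mouse cartilage, had 2.59 and 2.72 RPKM in H&H 35 mesenchyme, against 1.13 and 0.816 RPKM in H&H 31 mesenchyme, and 1.91 and 2.91 RPKM in H&H 35 epithelium, against 2.74 and 3.19 RPKM in H&H 31 epithelium. It rose by 0.89 ± 0.16 (SE, adjusted p = 0.0026) in mesenchyme, and the changes differed by 1.12 ± 0.23 (SE, adjusted p = 0.00444). H&H 31 mesenchyme alone was low, and mesenchyme minus epithelium was -1.01 ± 0.16 (SE, adjusted p = 0.000575) at H&H 31.

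ADAMTS6 and ADAMTS10, a related pair that acts on microfibrils, moved in opposite directions in both tissues. ADAMTS6 had 3.08 and 3.05 RPKM in H&H 35 mesenchyme, against 1.97 and 1.95 RPKM in H&H 31 mesenchyme, and 0.415 and 0.672 RPKM in H&H 35 epithelium, against 1.89 and 1.45 RPKM in H&H 31 epithelium. It fell by 0.79 ± 0.14 (SE, adjusted p = 0.00209) in epithelium, and the changes differed by 1.25 ± 0.19 (SE, adjusted p = 0.000989). Its rise in mesenchyme, 0.46 ± 0.14 (SE, adjusted p = 0.025), was lost without any one of the 4 mesenchyme libraries (0.0651 to 0.106), with 0.1 added (0.0741) and with quantile normalization (0.0825). ADAMTS10 had 9.22 and 9.24 RPKM in H&H 35 mesenchyme, against 16.0 and 15.3 RPKM in H&H 31 mesenchyme, and 8.17 and 9.81 RPKM in H&H 35 epithelium, against 5.82 and 6.40 RPKM in H&H 31 epithelium. It fell by 0.70 ± 0.11 (SE, adjusted p = 0.00107) in mesenchyme and rose by 0.49 ± 0.11 (SE, adjusted p = 0.00782) in epithelium, lost there without library I of H&H 31 epithelium (0.0611), and the changes differed by -1.19 ± 0.15 (SE, adjusted p = 0.000384). The tissues overlapped at H&H 35 and were apart by 1.23 ± 0.11 (SE, adjusted p = 1.03e-05) at H&H 31.

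ADAMTS7 and ADAMTS12, both able to cut the cartilage protein COMP, differed as well. ADAMTS7 rose in both tissues, with 10.3 and 10.5 RPKM in H&H 35 mesenchyme, against 4.19 and 3.73 RPKM in H&H 31 mesenchyme, and 4.87 and 5.26 RPKM in H&H 35 epithelium, against 3.20 and 2.77 RPKM in H&H 31 epithelium. The rise was 1.20 ± 0.11 (SE, adjusted p = 7.25e-05) in mesenchyme and 0.61 ± 0.11 (SE, adjusted p = 0.00307) in epithelium. The difference of 0.60 ± 0.16 (SE, adjusted p = 0.015) between them was lost without library I of H&H 31 epithelium (0.061) or library II of H&H 31 mesenchyme (0.0623). ADAMTS12 fell in epithelium, with 20.0 and 22.5 RPKM in H&H 35 mesenchyme, against 20.2 and 17.5 RPKM in H&H 31 mesenchyme, and 6.05 and 8.94 RPKM in H&H 35 epithelium, against 17.0 and 14.6 RPKM in H&H 31 epithelium. The fall there was by a log2 change of -1.0 ± 0.16 (SE, adjusted p = 0.00157), and the changes differed by 1.17 ± 0.23 (SE, adjusted p = 0.00365). ADAMTS13, the enzyme that cuts von Willebrand factor, was at or below 1.24 RPKM in every library and passed in neither stage comparison. It reached 1 RPKM only in libraries of epithelium, so its higher values there follow in part from the filter. It was lower in mesenchyme at both stages, with a log2 difference of -0.44 ± 0.12 (SE, adjusted p = 0.0097) at H&H 35, lost without library II of H&H 35 epithelium (0.0504).

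The 3 ADAMTS-like genes each had a distribution of their own. ADAMTSL1 rose in both tissues, and more in epithelium. It had 10.4 and 12.1 RPKM in H&H 35 mesenchyme, against 8.64 and 8.05 RPKM in H&H 31 mesenchyme, and 2.71 and 3.26 RPKM in H&H 35 epithelium, against 0.656 and 0.605 RPKM in H&H 31 epithelium. It rose by 1.29 ± 0.12 (SE, adjusted p = 8.66e-05) in epithelium, to 4.73 times the mean RPKM, and the changes differed by -0.90 ± 0.17 (SE, adjusted p = 0.00344). Its rise in mesenchyme, 0.39 ± 0.12 (SE, adjusted p = 0.0349), was lost without library I of H&H 31 mesenchyme (0.0926), library II of H&H 31 mesenchyme (0.17) or library II of H&H 35 mesenchyme (0.156), and with 0.1 added (0.0676), no filter (0.0555) or only the libraries compared (0.0508). Mesenchyme was higher by 1.62 ± 0.12 (SE, adjusted p = 3.57e-06) at H&H 35 and by 2.52 ± 0.12 (SE, adjusted p = 1.96e-07) at H&H 31. ADAMTSL3 had 2.55 and 3.32 RPKM in H&H 35 mesenchyme, against 2.22 and 1.98 RPKM in H&H 31 mesenchyme, and 0.15 and 0.191 RPKM in H&H 35 epithelium, against 0.446 and 0.30 RPKM in H&H 31 epithelium. Neither stage change passed, and their difference, with an adjusted p of 0.043, was lost with the batch number as a block (adjusted p = 0.0582) and without any one of 7 libraries, all but library I of H&H 35 mesenchyme (0.0652 to 0.145), and with quantile normalization (0.132). ADAMTSL5, which binds fibrillin, was at 0.310 to 1.08 RPKM in mesenchyme and at 3.82 to 5.70 RPKM in epithelium, with no change with stage that passed.

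The library kit kept no strand, so reads from a stretch where exons of 2 genes overlap cannot be told apart. Of 41 members found by symbol in the current annotation, 13 overlap another protein-coding gene by the span from start to end. Whether exons overlap was not looked at. Partners of some genes with a call are given here. LYSMD4, which overlaps ADAMTS17, had 13.7 and 15.7 RPKM in H&H 35 mesenchyme, against 6.38 and 8.02 RPKM in H&H 31 mesenchyme, and 19.4 and 16.6 RPKM in H&H 35 epithelium, against 35.7 and 43.7 RPKM in H&H 31 epithelium, an order of groups like that of ADAMTS17 over a narrower range. NIPAL4, which overlaps ADAM19, had 1.75 and 0.936 RPKM in H&H 35 mesenchyme, against 0.379 and 0.379 RPKM in H&H 31 mesenchyme, and was at 0.602 to 1.89 RPKM in epithelium, where ADAM19 was at most 0.202 RPKM. RUFY1, which overlaps ADAMTS2, ran between 15.6 and 17.6 RPKM in the 4 mesenchyme libraries. ULK1, which overlaps MMP17, had 6.32 and 7.04 RPKM in H&H 35 mesenchyme, against 3.20 and 2.99 RPKM in H&H 31 mesenchyme. SYN3, which overlaps TIMP3, had 1.06 and 1.02 RPKM in H&H 35 epithelium, against 0.209 and 0.189 RPKM in H&H 31 epithelium. REXO4, which overlaps ADAMTS13, was at 8.38 to 10.4 RPKM in mesenchyme and at 11.5 to 18.3 RPKM in epithelium. CANT1 and USP36, which overlap TIMP2, ran between 5.74 and 10.3 RPKM in mesenchyme and between 6.75 and 11.3 RPKM in epithelium. How many reads each pair shares was not tested.

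Genes that activate or restrain these enzymes were followed as well. Of 14 activators, inhibitors and cofactors tested, 5 rose and 1 fell in mesenchyme, beside 18.2% and 21.6% of all genes. In epithelium 1 of the 14 rose and 6 fell, beside 18.6% and 15.9% of all genes. PCSK6, a furin-like convertase that opens proenzymes, had 11.8 and 7.41 RPKM in H&H 35 mesenchyme, against 1.10 and 1.25 RPKM in H&H 31 mesenchyme. It rose by 2.26 ± 0.19 (SE, adjusted p = 3.81e-05) in mesenchyme and by 1.26 ± 0.19 (SE, adjusted p = 0.000959) in epithelium. SERPINE2, which inhibits serine proteases that act upstream of MMPs, had 154 and 131 RPKM in H&H 35 mesenchyme, against 37.2 and 40.1 RPKM in H&H 31 mesenchyme, a rise by 1.85 ± 0.12 (SE, adjusted p = 9.01e-06). RHBDF2, which carries ADAM17 to the cell surface, fell by 1.34 ± 0.11 (SE, adjusted p = 3.65e-05) in mesenchyme. FBLN1, a cofactor of ADAMTS1 in cutting aggrecan, rose by 1.0 ± 0.09 (SE, adjusted p = 6.97e-05) in mesenchyme and fell by 1.43 ± 0.09 (SE, adjusted p = 9.87e-06) in epithelium. In epithelium PLAU, the urokinase that generates plasmin, fell by 1.34 ± 0.17 (SE, adjusted p = 0.000408). RECK, a membrane-anchored MMP inhibitor, fell by 0.88 ± 0.10 (SE, adjusted p = 0.000258) in epithelium, where it had 0.642 and 0.595 RPKM at H&H 35, against 2.11 and 1.86 RPKM at H&H 31.

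Among 10 other matrix proteases tested, 3 rose and 2 fell in mesenchyme, beside 18.2% and 21.6% of all genes. In epithelium 2 of the 10 rose and 2 fell, beside 18.6% and 15.9% of all genes. HTRA1, a secreted serine protease, had 59.5 and 53.3 RPKM in H&H 35 mesenchyme, against 171 and 175 RPKM in H&H 31 mesenchyme, and fell by 1.60 ± 0.20 (SE, adjusted p = 0.000325), while HTRA3 of the same family rose by 1.29 ± 0.18 (SE, adjusted p = 0.00067). TLL2, a tolloid-like protease, fell by 1.53 ± 0.14 (SE, adjusted p = 6.62e-05) in epithelium, with 2.70 and 2.41 RPKM at H&H 35, against 10.2 and 8.40 RPKM at H&H 31. Among 18 substrates tested, 8 rose and 6 fell in mesenchyme, and 6 rose and 4 fell in epithelium, beside the same shares. Versican (VCAN), the proteoglycan cut by several ADAMTS enzymes, had 11.1 and 18.1 RPKM in H&H 35 epithelium, against 69.1 and 68.8 RPKM in H&H 31 epithelium, and fell by 2.20 ± 0.20 (SE, adjusted p = 7.4e-05) there. Fibronectin (FN1) fell by 2.13 ± 0.11 (SE, adjusted p = 3.22e-06) in epithelium. The Notch ligands JAG1 and DLL1, which ADAM10 can cut, rose by 3.52 ± 0.14 (SE, adjusted p = 9.38e-07) and by 2.59 ± 0.18 (SE, adjusted p = 1.58e-05) in mesenchyme.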

How the data were processed

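Dorsal skin of White leghorn embryos was separated into epithelium and mesenchyme in saline free of calcium and magnesium, and RNA libraries were made with an Illumina TruSeq v2 kit, which keeps no strand, and sequenced as 50 bp single-end reads. The authors trimmed the reads and used Partek Flow to map them to the galGal4 build, followed by Partek Genomics Suite, and the submitters' processing notes also name TopHat2, while versions are not given in the sources used here. The authors deposited 1 table of RPKM for 14642 genes in 8 libraries, with the number of alignments of each library (22050712 to 33620383). Every library had the sample name of its label and none was left out. RPKM holds no counts, so no counting interval is given.

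RPKM was used as deposited. Genes with at least 1 RPKM in at least 2 libraries (11155, of them 40 of the 44 members) were put on the log2(RPKM + 1) scale. The limma package (3.58.1, under R 4.3.3) was used with a model of 4 group means and a moderated test with a trend on the mean (2-sided). P-values were adjusted by Benjamini-Hochberg over all 11155 genes, with calls at an adjusted p under 0.05. They measure the spread between the 2 libraries of a group, shared over all 4 groups, so replicates of groups not compared enter too. The fit was tested on simulated data. Units were checked by name for 157 gene columns, while the fit used all. The members were the gene symbols that read MMP, ADAM, ADAMTS, ADAMTSL or TIMP and a number. Full values are given for members called with a stage change of at least 1 or a tissue difference of at least 2 on the log2 scale, for those whose stage changes differed between tissues, and for each TIMP, and up to 4 called genes are named from each other list. The members and all gene lists were chosen with earlier results of these data known. Current RefSeq annotation (GRCg7b), in which 42 of 44 members were found by symbol or synonym, was used only for names, neighbours and overlaps. Related genes such as MMP14 and TIMP1 had no column under those symbols in the deposited values, so nothing is said of them here.

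The batch number pairs the libraries by label. Deviations of same-numbered libraries from their group means were correlated over genes for the 6 pairs of groups. Between the tissues r was 0.316 at H&H 35 and 0.194 at H&H 31, and pairs across stages ran from -0.184 to 0.04. The main fit holds no pairing. The block is 1 batch term over both stages, so a pairing of the tissues within a stage was not modelled. Alternatives were other added values (0.1 and 0.5), no filter, a filter at 5 RPKM, 3 other scalings, the batch as a block, a fit on only the libraries compared, no trend, and leaving out each library.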

Additional observations from a re-analysis of the deposited data

Results flagged for a closer look

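In 23 of the 40 tested genes the change with stage differed between mesenchyme and epithelium by a test of that difference (limma, adjusted p under 0.05, 2 libraries a group). Over all genes tested the share was 42.4%. Values are the log2 change in mesenchyme minus that in epithelium. ADAMTS17 had 5.0, ADAMTS18 3.26, ADAMTS19 2.28, MMP23B 2.18 and ADAMTS2 2.03. Smaller positive differences were found for ADAMTS9 (1.79), MMP17 (1.67), ADAMTS6 (1.25), MMP16 (1.19), ADAMTS12 (1.17), ADAMTS5 (1.12) and ADAMTS3 (1.07). Those of ADAM19 (0.89), ADAM33 (0.82), MMP13 (0.73), ADAM9 (0.62), ADAMTS7 (0.60) and ADAMTSL3 (0.57) were below 1. For ADAM33 and MMP13 the ratio of mean RPKM between the stages was no larger in mesenchyme than in epithelium, where both were low. The epithelial ratio of MMP13 rests on 2 and 6 reads at H&H 35, against 2 and 0 at H&H 31, and the stages overlapped. The difference was negative for ADAMTS8 (-2.96), ADAMTS10 (-1.19), ADAM23 (-0.96), ADAMTSL1 (-0.90) and ADAM10 (-0.49). The call was lost in 8 of 17 alternatives for ADAM10, 9 of 14 for ADAM19 and 9 of 16 for ADAMTSL3. For ADAMTS7 it was lost in 2, and for ADAM33 and MMP13 in 1 each. Outlying libraries within a group could not be tested for with 2 libraries a group.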

How the results depend on the processing

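Of 131 calls on single genes over the 5 comparisons, 106 were kept in every alternative that tested them, 25 were lost in at least 1, of them 11 only with a library left out, and none changed direction. For 24 of the 131 the gene was below the filter in at least 1 alternative, which then gave no test. This was so at 5 RPKM, and for the 10 calls of ADAM19, ADAMTS19 and MMP13 also without either library of H&H 35 mesenchyme. Apart from the filter, the fit on only the libraries compared was not run for differences between stage changes. The 15 calls given for genes outside the families were kept in every alternative. With a library left out its group holds 1, which limma takes to vary like the others. Over these, the count that rose in epithelium ran from 4 to 9, the only count of members that moved by over 1.5 times in any alternative. ADAMTS17 between tissues at H&H 35, -0.09 and not called, became 0.026 with equal sums, 0.038 with quantile normalization and 0.0034 with median-ratio scaling, and ran from -0.32 to 0.14 with a library left out. TIMP4 in mesenchyme ran from -0.86 to 0.28. With the batch as a block the calls of ADAMTS8 in epithelium (adjusted p = 0.0647) and of ADAMTSL3 between stage changes (0.0582) were lost, TIMP4 (0.0439) and ADAMTS20 (0.0395) in epithelium and ADAMTS20 between tissues at H&H 35 (0.0209) were called, and 17 genes in place of 18 had the more positive stage change in mesenchyme. The block changed no other call on these genes. Calls lost outside these settings numbered 6 with 0.1 added, 1 with 0.5 added, 6 with no filter, 5, 8 and 4 with equal sums, quantile normalization and median-ratio scaling, 3 with no trend and 3 with only the libraries compared. Values of ADAM8, MMP1, MMP9 and TIMP4, and those of MMP13 in epithelium, rest on few reads.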
